A study of Mus musculus with 12 samples.

Results

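Female germ cells of E12.5 (embryonic day) were compared with primordial germ cells (PGCs) of E9.5, with 2 libraries of each stage, 4 of the 12 libraries of the study. Libraries entered each group by their labels. The study measured RNA by 3′-end sequencing in germ cells of mouse embryos and in PGC-like cells grown in culture. All embryonic groups carried the Stella-EGFP reporter (SG), in which green fluorescence marks cells that express Stella, on a background given as ICR:C57BL/6=1:1. They were sorted as SG+ cells, no other treatment is named, and cDNA was amplified from 1 ng of RNA per library. The labels do not separate E9.5 PGCs by sex, so stage and the share of XX cells cannot be told apart in this comparison. Whether libraries of a stage came from separate embryos, litters or sorts is not stated either, and every p-value therefore rests on the spread among the libraries at hand, which may be technical. The 2 libraries of E12.5 male germ cells, of the same reporter, background and sort, served to test which changes differed between the sexes.

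PGCs are the founder cells of eggs and sperm. At E9.5 they move through the hindgut towards the future gonads, guided by the ligand of the receptor Kit and by the chemokine Cxcl12, and by E12.5 they have settled in the gonad. By then they have lost most of their DNA methylation. In the gonad they turn on a gonadal germ cell programme that includes the RNA-binding protein Dazl and the helicase Ddx4. In the ovary, retinoic acid and BMP signals then induce Stra8 and Zglp1, and the cells enter meiosis, in which cohesin and axis proteins organise each chromosome, the synaptonemal complex joins homologous chromosomes and recombination exchanges their DNA. In the testis the cells instead stop dividing, with a phase of Nodal signalling that includes the Lefty genes.

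Values are RPM, reads scaled to the library total, and values of one gene are compared between libraries, never between genes. A log2 change is a difference between group means of log2(RPM + 1), given ± its standard error (SE) with n = 2 libraries in each group. The added 1 RPM understates the change of low genes. A gene was called, and is said to have risen or fallen, where the Benjamini-Hochberg adjusted p of limma was under 0.05. Depth in genes was estimated at 2727949 and 4251195 reads at E9.5 and at 3306249 and 3986385 reads in E12.5 females. Where a gene is at 0, up to 3 reads (0.708 to 1.10 RPM, depending on the library) cannot be told from none. That floor includes no error beyond counting, as the cDNA was amplified.

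The label of both groups was checked against 9 germ cell markers. All 9 were at or above 5 RPM in each of the 4 libraries, and together they summed to 3712 and 3693 RPM at E9.5 and to 5822 and 5802 RPM in E12.5 females. Dppa3, which encodes the Stella protein used for the sort, was at 2013 and 2089 RPM at E9.5 and at 2864 and 2967 RPM in E12.5 females, a rise of 0.51 ± 0.10 on the log2 scale (adjusted p = 0.00179). Other cell types were not evenly represented. Of 14 blood markers with a row, 6 reached 5 RPM in each E9.5 library, and the list summed to 4590 and 4056 RPM there against 17.6 and 13.1 RPM in E12.5 females. The transcription factor genes Gata1, Tal1 and Lyl1 and the leukocyte gene Ptprc were at or below 1.18 RPM in every library of both stages.

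The 18 mesenchyme markers summed to 629.8 and 585 RPM at E9.5 and to 279 and 289 RPM in E12.5 females, where the fibronectin gene Fn1 alone was at 269 and 270.3 RPM and 10 of the 18 were at 0 in each library. Endothelial markers summed to 64.0 and 60.6 RPM against 17.0 and 12.1 RPM. Endoderm markers summed to 55.9 and 66.3 RPM against 39.5 and 36.3 RPM, and neural markers to 57.7 and 55.7 RPM against 56.7 and 52.1 RPM. Markers of gonadal somatic cells, the cells that surround the germ cells at E12.5, summed to 57.6 and 59.7 RPM in E12.5 females against 77.6 and 73.0 RPM at E9.5. Most of the female sum came from Insl3, a Leydig cell hormone gene, which rose from 17.6 and 17.6 to 40.3 and 37.7 RPM. The supporting-cell gene Amh and the steroid enzyme gene Cyp11a1 were at 0 in all 4 libraries. The granulosa gene Foxl2 was at 0 and 0.251 RPM in E12.5 females, and the gonadal regulator Nr5a1 at 0.606 RPM and 0. The plot of marker sums shows that blood markers differed most. Whether fewer cells of another type or less of their RNA underlies a lower marker sum cannot be told apart in bulk libraries.

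**Figure D1:**
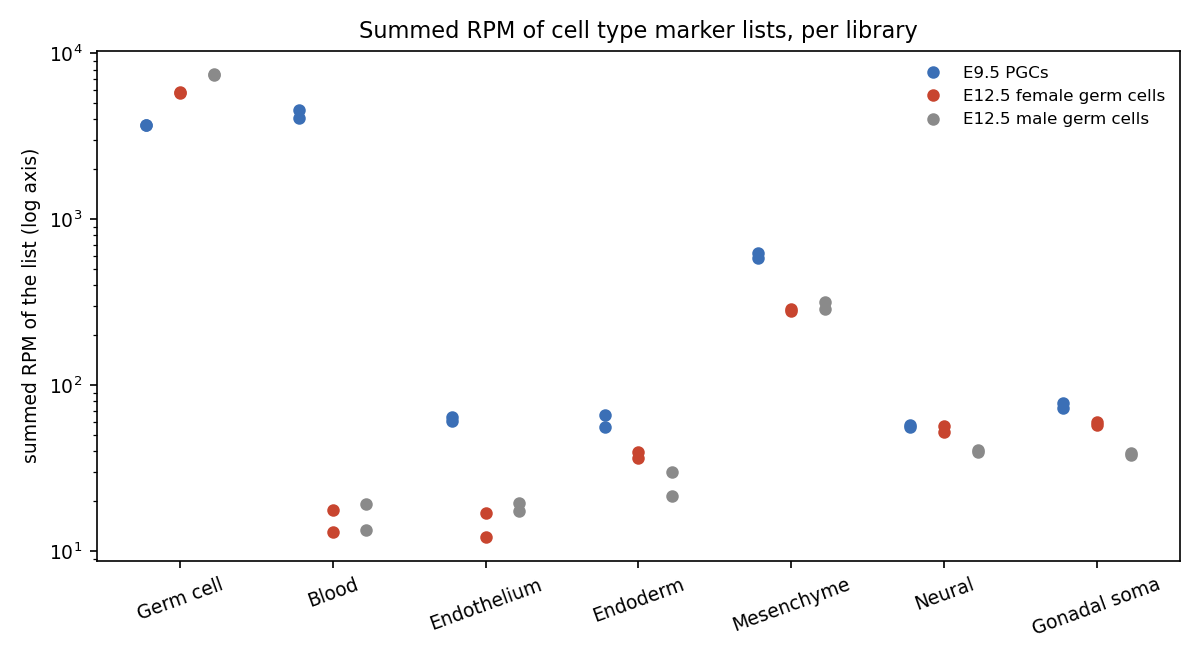
Summed RPM of each marker list (log axis), 1 point per library, for E9.5 PGCs, E12.5 female and E12.5 male germ cells. Blood markers sum to 4590 and 4056 RPM at E9.5 and to 17.6 and 13.1 RPM in E12.5 females, while germ cell markers are high in all libraries.

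Between the stages, 4069 of 10856 genes tested were called, which is 37.5%: 2216 were higher in E12.5 females (20.4%) and 1853 lower (17.1%). Of the genes tested, 1993 (18.4%) were called and changed at least 2-fold, and the median change of all genes tested was 0.04. The shares of list members called are given beside those of all genes. A member that passed the filter on low values (at least 5 RPM in at least 2 of the 12 libraries) through its level in 1 stage alone had to differ between the stages, so the counts of members tested describe those members and not a whole list. The count rested on the spread between few libraries, with 2512 calls without E9.5 replicate 1 and 2456 without E9.5 replicate 2. The 15 called genes that rose most and the 15 that fell most were ranked among those with a mean of at least 50 RPM in 1 stage. Their libraries did not overlap between stages, and symbols of predicted genes (Gm with digits, Rik or LOC) were left out. Besides genes described below, those that rose included Stk31, a germ cell kinase-like gene (14.3 and 10.1 RPM against 202 and 195 RPM). Gpat2 (10.7 and 6.60 against 116 and 161 RPM) and the testis cytochrome c gene Cyct (14.3 and 9.44 against 140.4 and 167 RPM) were also among them. The 15 that fell most were led by the embryonic globin genes Hbb-bh1, Hba-x and Hbb-y, with log2 changes of -8.75 to -7.60. Beside these stood genes such as the growth-factor binding protein gene Igfbp4 (55.9 and 47.4 against 1.52 and 1.76 RPM), the iron exporter gene Slc40a1 (109.6 and 81.6 against 4.55 and 5.78 RPM) and Hmga2, a chromatin protein gene of proliferating embryonic cells (90.8 and 106 against 9.40 and 9.56 RPM).

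**Figure D2:**
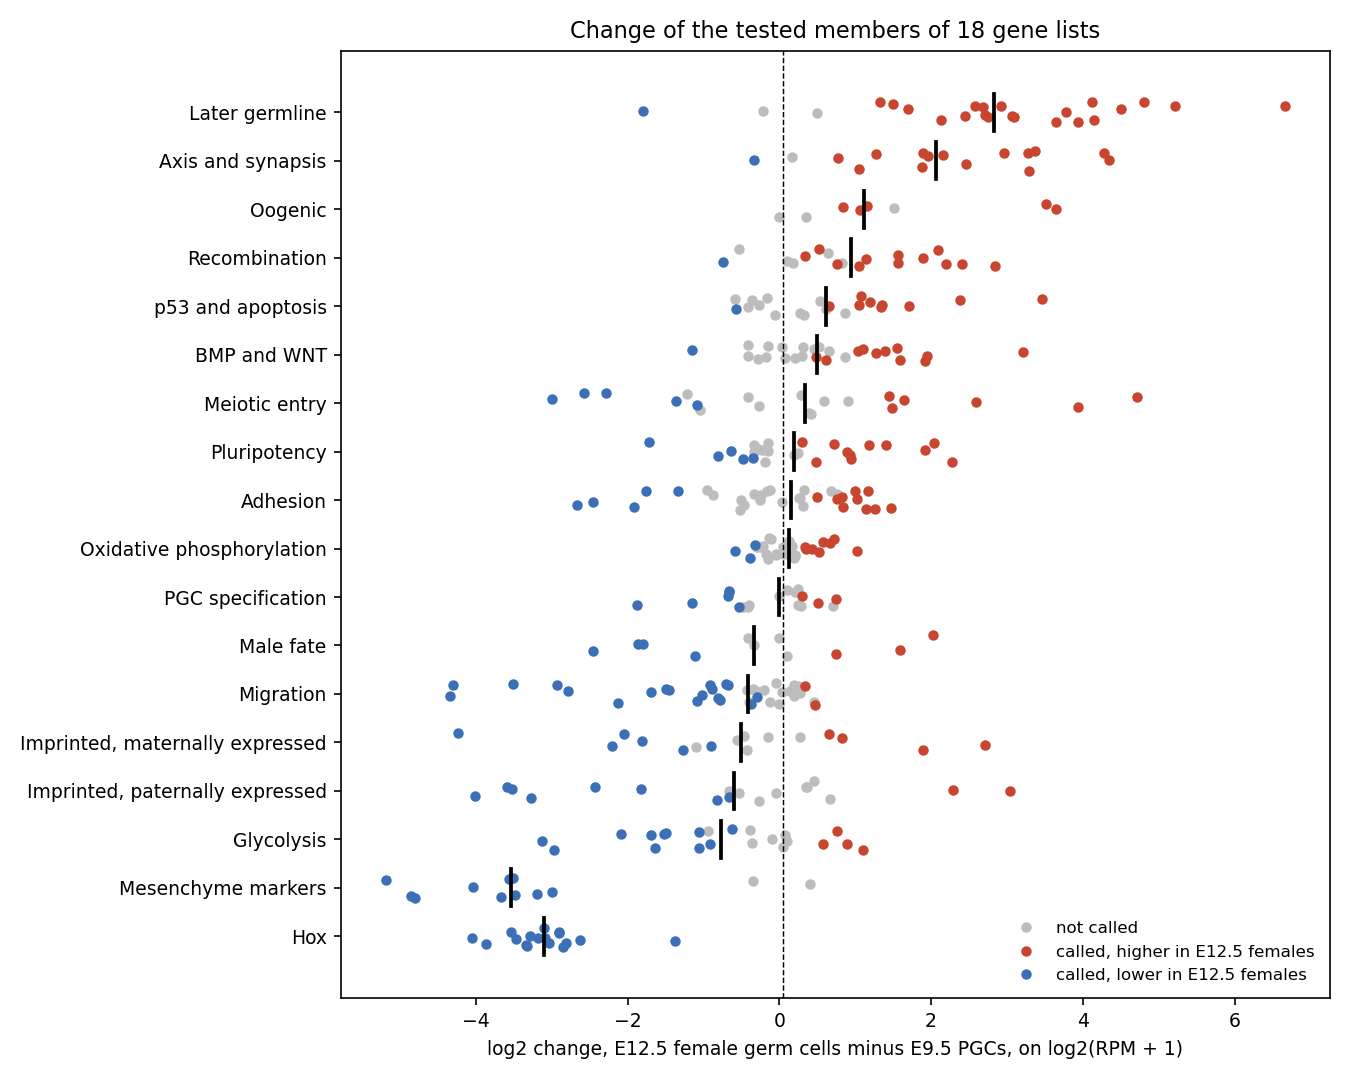
Log2 change (E12.5 female germ cells minus E9.5 PGCs, on log2(RPM + 1)) of each tested member of 18 gene lists, 1 point per gene, red or blue where called and grey where not, with the list's median as a black bar and the median of all genes as a dashed line. Later germline and axis lists lie to the right, with medians of 2.83 and 2.06, and glycolysis to the left. Of their members, 10 of 24 and 6 of 16 reached 5 RPM in both female libraries but not in both of E9.5. Hox genes and mesenchyme markers also lie to the left. Most of them reached 5 RPM in both E9.5 libraries but not in both of the females, so their side was largely set by the filter.

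Inducers of the meiotic programme were higher in E12.5 females than at E9.5. Stra8, the retinoic acid-induced gatekeeper of meiotic entry (NCBI gene 20899, GRCm38.p6 chromosome 6, 34920163 to 34939344), was at 0.735 and 0.236 RPM at E9.5 and at 37.0 and 37.97 RPM in E12.5 females, a log2 change of 4.72 ± 0.38 (adjusted p = 1.24e-06). In E12.5 males it was at 1.25 and 0.301 RPM, within the range allowed by 3 reads or close to it. Zglp1, a zinc-finger factor of the oogenic programme downstream of BMP (chromosome 9, 21062393 to 21067093), went from 2.57 and 3.54 RPM to 62.5 and 58.6 RPM (3.93 ± 0.37, adjusted p = 4.71e-06). Males held 16.3 and 12.6 RPM of it, between the stages. For both genes, each E12.5 female library was far above both E9.5 libraries. With 2 libraries in each group, that alone is not a test of change.

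The RNA side of meiotic entry rose as well. Meioc, listed as Gm1564, which with the helicase Ythdc2 represses mitotic transcripts, was at 0.735 and 0.708 RPM at E9.5 and at 10.9 and 8.05 RPM in E12.5 females (2.59 ± 0.58, adjusted p = 0.0034). Ythdc2 itself went from 7.72 and 8.26 to 21.5 and 25.6 RPM (1.45 ± 0.29). Rbm46, a germ cell RNA-binding protein that acts with them, went from 10.7 and 10.6 to 42.1 and 29.9 RPM (1.65 ± 0.26). These 3 genes were higher in every E12.5 female library than in either E9.5 library, which alone is not a test of change. The sixth gene of the list that rose, the zinc-finger gene Bnc2, went from 1.10 and 1.65 to 6.97 and 4.53 RPM. Its call was lost without E9.5 replicate 1 or E12.5 female replicate 1. Meioc, Ythdc2, Rbm46 and Bnc2 were not called between E12.5 females and males.

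Some genes that carry, take up or make retinoids fell over the same interval, and others were not called. Crabp2, a cellular retinoic acid-binding protein, was at 109.9 and 122 RPM at E9.5 and at 12.1 and 15.3 RPM in E12.5 females (-2.99 ± 0.41, adjusted p = 1.04e-04). Stra6, a retinol uptake receptor, went from 9.56 and 5.43 RPM to 0.909 RPM and 0, and Aldh1a2, which makes retinoic acid in embryonic mesoderm, from 26.5 and 34.4 to 6.06 and 4.78 RPM. Crabp1, a relative of Crabp2, went from 118 and 123 to 55.8 and 57.3 RPM, a call lost when any of the 4 libraries was left out. The retinol dehydrogenase gene Rdh10 (11.03 and 10.4 against 10.00 and 7.54 RPM) and Aldh1a1 (0 and 0.236 against 1.21 RPM and 0) were not called. Mesenchyme and blood marker sums were also lower in E12.5 females, and their part in these falls was not tested. The receptor genes Rara, Rarb and Rarg were not called, with log2 changes of 0.59, -1.04 and -0.41. Cyp26b1, which degrades retinoic acid in the fetal testis, was at or below 1.65 RPM in all 4 libraries. Of 20 tested genes of retinoic acid signalling and meiotic initiation, 6 rose (30.0%, against 20.4% of all genes) and 5 fell (25.0%, against 17.1%), with a median of 0.34. Of the 20, 9 reached 5 RPM in all 4 libraries, 4 in both female libraries but not in both of E9.5, and 3 the reverse.

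Bases before a transcript start of 3 genes are shown from RefSeq (GRCm38.p6), each read on the strand of its gene. Stra8, the target of retinoic acid, holds the letters AGGTCA, the core bound by nuclear receptors, at 2 places in the 250 bases before the start that the promoter table gives for it. That start lies inside the span of the gene given above, so the sites are not upstream of the whole gene. Each is shown in capitals within 30 bases, at chr6:34920742-34920771 and chr6:34920898-34920927 on the + strand. The window also overlaps an exon of another annotated Stra8 transcript, so only these stretches are shown.
Stra8 site 1: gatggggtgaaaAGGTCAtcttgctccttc
Stra8 site 2: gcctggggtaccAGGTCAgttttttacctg
Mael and Dazl, the later germline genes that rose most, are shown for the 230 bases that end 20 bases short of the listed start. CpG sites carry DNA methylation, and the median CpG count of this window was 14 in the 19 later germline genes called higher. It was 15 in the 8449 genes tested and 5 in all 27025 genes with a promoter. The Mael stretch lies at chr1:166238765-166238994 (- strand), holds 14 CpG, and has in capitals CACGTG, the E-box bound by MAX-containing repressors, and TCCCGC, an E2F core.
Mael: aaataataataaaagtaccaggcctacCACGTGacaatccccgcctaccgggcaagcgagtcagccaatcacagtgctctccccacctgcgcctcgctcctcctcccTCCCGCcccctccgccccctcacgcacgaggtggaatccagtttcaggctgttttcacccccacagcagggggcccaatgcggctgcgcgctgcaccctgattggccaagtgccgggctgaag
The Dazl stretch lies at chr17:50293641-50293870 (- strand) and holds 19 CpG and none of the 3 motifs.
Dazl: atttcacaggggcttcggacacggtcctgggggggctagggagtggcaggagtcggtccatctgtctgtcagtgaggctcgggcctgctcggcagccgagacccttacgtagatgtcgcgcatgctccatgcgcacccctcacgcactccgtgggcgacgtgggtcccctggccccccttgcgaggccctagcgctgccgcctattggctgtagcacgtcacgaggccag

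The letters were searched on both strands of the same 230-base window in all 27025 genes of the promoter table. CACGTG was present in 5.38% of all of them and in 7.68% of the 8449 that were also tested for expression. It was present in 6 of 19 later germline genes called higher and in 6 of 13 axis and synapsis genes called higher, against 0 of 10 recombination genes called higher. Over all members with a promoter entry, called or not, it was present in 9 of 26, 6 of 18 and 0 of 21. TCCCGC was present in 28.5% of the tested genes and in 6, 6 and 3 of the same called sets. AGGTCA was present in 9.54% of the tested genes and in 3, 2 and 1 of them. A match describes the letters of a window and is not evidence of binding.

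Chromosome axis and synapsis genes rose in 14 of 16 tested cases (87.5%, against 20.4% of all genes), with a median of 2.06 against 0.04 for all genes. Of the 16, 9 reached 5 RPM in all 4 libraries and 6 in both female libraries but not in both of E9.5. Smc1b, a meiosis-specific cohesin subunit (chromosome 15, 85064689 to 85131957), was at 8.09 and 6.60 RPM at E9.5 and at 162 and 176 RPM in E12.5 females, 23.0-fold higher (4.35 ± 0.17, adjusted p = 4.60e-09). Hormad1, which coats unsynapsed axes, went from 3.68 and 4.72 to 108 and 91.7 RPM (4.28 ± 0.26). Sycp3, the lateral element protein of the synaptonemal complex, went from 2.21 and 5.90 to 41.8 and 48.0 RPM (3.28 ± 0.38). In each of these, both E12.5 female libraries were above both E9.5 libraries, which alone is not a test of change. Males of E12.5 shared much of the rise of Smc1b and Hormad1. They held 93.5 and 99.95 RPM of Smc1b and 74.1 and 64.6 RPM of Hormad1, log2 changes from E9.5 of 3.55 and 3.76. Hormad1 was not called between the sexes.

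The other parts of the complex changed with them. Sycp1, which forms the transverse filaments, was at 1.84 and 1.42 RPM at E9.5 and at 24.9 and 24.4 RPM in E12.5 females. Tex12 and Syce3, central element genes, went from 2.94 and 0.708 to 25.2 and 26.4 RPM and from 0 and 0.944 to 9.40 and 10.3 RPM. The axis partner Sycp2 went from 0 and 1.18 to 6.06 and 8.30 RPM, and the cohesin gene Stag3 from 30.9 and 30.2 to 151 and 130.3 RPM. Syce2, another central element gene, already stood at 449 and 447 RPM at E9.5 and was at 351 and 358 RPM in E12.5 females. Its fall of -0.34 ± 0.11 lost its call without any of the 4 libraries. The cohesin gene Rad21l was at 0 in all 4 libraries, and Trip13, an ATPase that removes Hormad proteins, was not called (62.9 and 55.7 against 71.5 and 62.4 RPM).

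Rec8, the meiotic cohesin kleisin (chromosome 14, 55618002 to 55625395), rose from a mean of 12.7 ± 0.335 RPM (SD, n = 2) to 44.3 and 55.6 RPM (1.88 ± 0.36, adjusted p = 0.00112). In males it was at 4.06 and 1.81 RPM, below E9.5. The difference between females and males was 3.75 ± 0.36 (adjusted p = 1.95e-05).

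Recombination genes rose in 12 of 18 cases tested (66.7%, against 20.4% of all genes), with a median of 0.94, and 1 fell (5.56%, against 17.1%). Of the 18, 12 reached 5 RPM in all 4 libraries and 5 in both female libraries but not in both of E9.5. The count of those that rose was 8 to 9 when any 1 of the 4 libraries was left out. Dmc1, the meiotic strand-exchange recombinase, was at 2.94 and 4.01 RPM at E9.5 and at 25.8 and 19.6 RPM in E12.5 females (2.40 ± 0.34, adjusted p = 1.33e-04). Rec114, listed as 2410076I21Rik, which helps to form DNA breaks, went from 5.51 and 6.84 to 52.1 and 48.8 RPM (2.85 ± 0.24). Tex15, a protein needed for meiotic repair, went from a mean of 12.9 ± 0.502 RPM (SD, n = 2) to 58.2 and 67.1 RPM and Hsf2bp, a partner of Brca2, from 16.2 and 10.1 to 52.4 and 64.1 RPM. Spo11, which cuts the DNA, was not called and its groups overlapped, at 6.25 and 8.49 RPM against 6.06 and 10.3 RPM. Prdm9, which places the breaks in mice, was at or below 1.55 RPM in all 4 libraries. The crossover genes Msh4 (0 in both E9.5 libraries, 2.43 and 3.27 RPM in E12.5 females), Msh5, Mlh3 and Rnf212 did not pass the filter on low values. The only member that fell was Psmc3ip, a cofactor of Dmc1, from 52.9 and 52.1 to 34.0 and 28.2 RPM (-0.75 ± 0.17), whereas its partner Mnd1 was at 27.2 and 28.5 against 40.2 and 41.0 RPM, a rise whose call was lost without any of the 4 libraries.

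**Figure D3:**
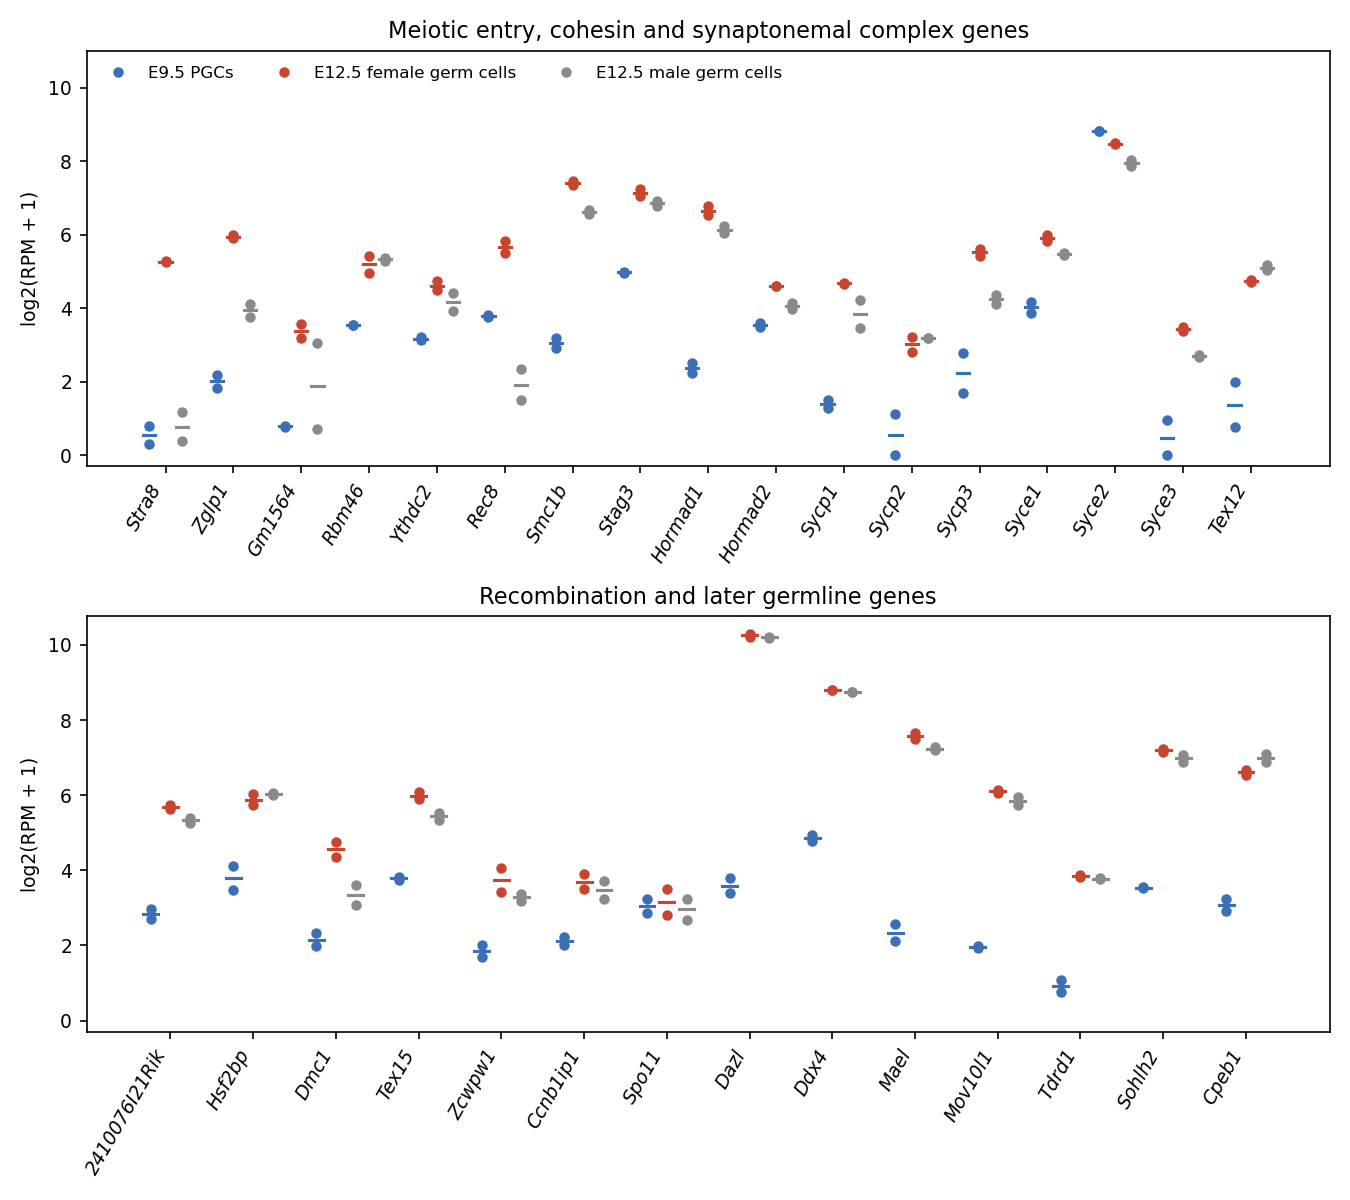
Levels of meiotic and later germline genes as log2(RPM + 1), 1 point per library with the group mean as a bar, for E9.5 PGCs (blue), E12.5 female (red) and E12.5 male germ cells (grey). Stra8 and Rec8 are highest in females, Dazl, Ddx4 and Mael are high in both sexes, and Spo11 overlaps between groups.

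Later germline genes, many of which are held off by promoter DNA methylation before the gonadal stage, had the highest median of the lists: 21 of 24 tested members rose (87.5%, against 20.4% of all genes), and the median was 2.83. Of the 24, 13 reached 5 RPM in all 4 libraries and 10 in both female libraries but not in both of E9.5. Dazl (chromosome 17, 50279393 to 50293620), whose promoter stretch is shown above, was at 12.9 and 9.44 RPM at E9.5 and at 1245 and 1191 RPM in E12.5 females, 109-fold higher. Mael, a piRNA pathway gene, went from 3.31 and 4.95 to 199 and 178 RPM. Mov10l1, the helicase that feeds piRNA precursors, went from 2.94 and 2.83 to 66.1 and 69.1 RPM (4.14 ± 0.28). The piRNA proteins Piwil2 (18.8 and 18.4 to 104 and 108 RPM), Asz1 (9.56 and 6.13 to 86.7 and 59.3 RPM) and Tdrd1 (1.10 and 0.708 to 13.0 and 13.6 RPM) followed the same direction.

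Genes of germ cell metabolism and structure rose beside them. Slc25a31, a germ cell ADP/ATP carrier, was at 9.56 and 6.13 RPM at E9.5 and at 149 and 152 RPM in E12.5 females, and Rpl10l, a retrocopy of a ribosomal protein gene, went from 5.88 and 12.7 to 130.1 and 136 RPM. The near-identical tubulin genes Tuba3a and Tuba3b rose by 4.50 and 4.81, and reads could have been split between them. The only member that fell was the neurofilament gene Nefm, from 7.72 and 10.9 to 2.43 and 1.51 RPM. Tdrd5 (26.8 and 34.9 against 49.4 and 38.2 RPM) and Ddx25 (10.7 and 13.0 against 8.79 and 11.3 RPM) were not called. Piwil4, Taf7l and Tdrd9 did not pass the filter on low values.

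Oocyte regulators were at very different points. Cpeb1, a regulator of translation in oocytes, was at 6.62 and 8.49 RPM at E9.5 and at 92.5 and 100.3 RPM in E12.5 females, and Sohlh2, a later oocyte transcription factor, went from 10.7 and 10.6 to 141 and 149.9 RPM. Males held 117 and 137 RPM of Cpeb1 and 117 and 133 RPM of Sohlh2. The subunit gene Taf4b went from 34.2 and 33.0 to 69.7 and 73.7 RPM. In contrast, the follicle-stage genes Gdf9, Bmp15, Zp1 and Zp2 were at or below 1.10 RPM in all 4 libraries, and the factors Figla, Nobox, Lhx8 and Sohlh1 at or below 2.51 RPM. Of 8 tested members 5 rose (62.5%, against 20.4% of all genes) and 3 were not called, and 16 did not pass the filter. Pou6f1, among the 5, lost its call without any of the 4 libraries.

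The changes were set against males of the same day, in a comparison that shares the female libraries. Females differed from males in 1297 genes (11.9%), 725 higher (6.68%) and 572 lower (5.27%), and 650 genes, 5.99% of those tested, were called and differed at least 2-fold. The count was 538 and 562 without E12.5 female replicate 1 and 2, and 552 and 567 without E12.5 male replicate 1 and 2. Of the 24 later germline genes 1 was called between the sexes, Tdrd5, which was lower in females by -1.18 ± 0.26. That call was lost without E12.5 female replicate 2 or either male library. Of the axis genes 4 of 16 were higher in females: Rec8, Smc1b (0.80 ± 0.17), Syce2 and Sycp3 (1.28 ± 0.38), of which Rec8 kept its call without each library in turn and the others did not. Of the meiotic entry genes 8 of 20 were higher in females, among them Stra8 (4.49 ± 0.38, adjusted p = 6.49e-06) and Zglp1 (2.00 ± 0.37, adjusted p = 0.00311). That count of 8 (6.68% of all genes were higher) became 4 without E12.5 female replicate 2, 5 without E12.5 female replicate 1 and 6 without either male library. Of the 18 recombination genes 1 was higher in females and 1 lower (5.56% each, against 6.68% and 5.27% of all genes), with a median difference of 0.10. Dmc1 was the 1 higher, by 1.21 ± 0.34, a call lost when any of the 4 libraries was left out. Mnd1 was the 1 lower, and its call was lost in the same way.

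Several genes ended far higher in females than in males. Msx2, a BMP-responsive homeobox gene, was at 55.5 and 64.5 RPM at E9.5 and at 71.5 and 75.2 RPM in females, a change that was not called (adjusted p = 0.468). It was at 4.38 and 8.43 RPM in males, a difference of 3.38 ± 0.29. Nr6a1, a germ cell nuclear receptor, rose from 96.7 and 86.8 to 155 and 175 RPM in females (0.84 ± 0.19) and was at 14.4 and 19.6 RPM in males (difference 3.22 ± 0.19). Phlda2, an imprinted growth regulator, was at 304 and 306 RPM at E9.5 and at 468 and 490.3 RPM in females. Males held 5.63 and 5.72 RPM of it. Msx2 and the Id genes named next lie outside the rule for named genes and were chosen after their values were seen.

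**Figure D4:**
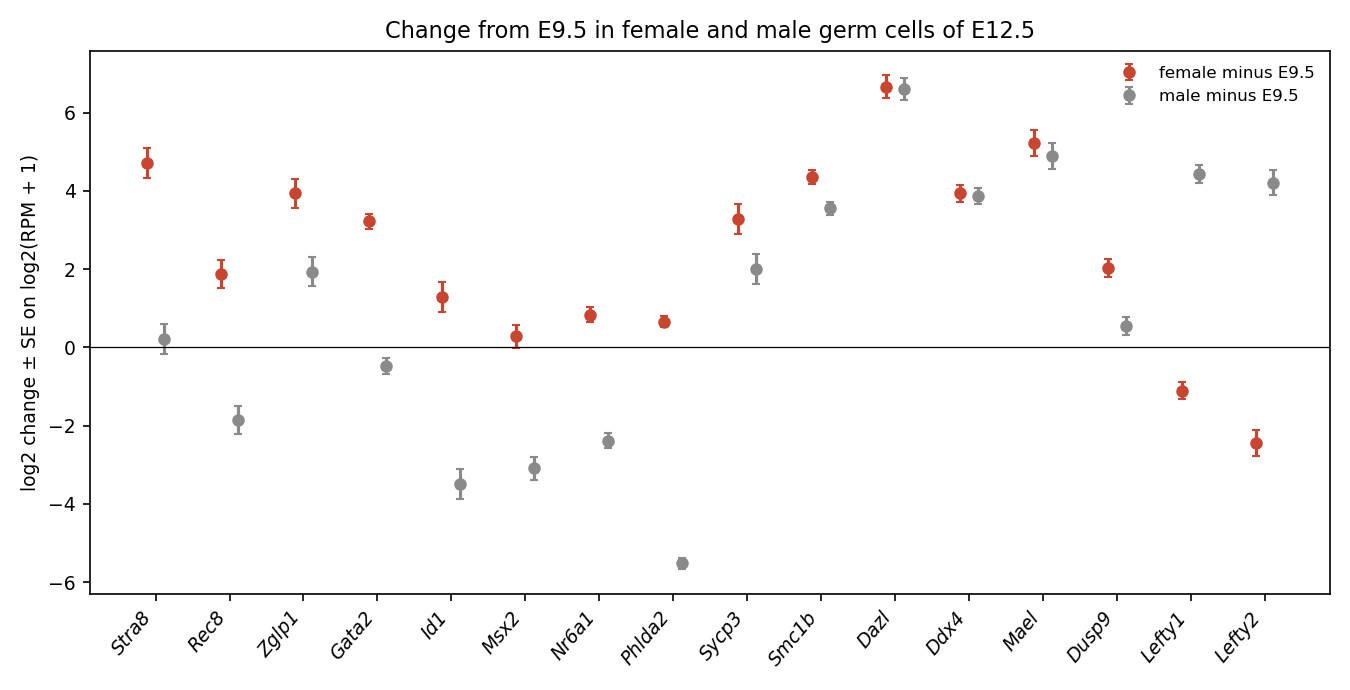
Log2 change from E9.5 ± SE (points and error bars, on log2(RPM + 1)) in E12.5 female (red) and male (grey) germ cells for 16 genes. Dazl, Ddx4 and Mael differ between the sexes by less than the SE, while Stra8, Rec8, Gata2, Id1, Msx2, Nr6a1 and Phlda2 lie higher in females and Lefty1 and Lefty2 in males.

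Genes of BMP and WNT signalling rose in E12.5 females in 11 of 26 cases (42.3%, against 20.4% of all genes) and fell in 1 (3.85%, against 17.1%), with a median of 0.50. Of the 26, 20 reached 5 RPM in all 4 libraries and 3 in both female libraries but not in both of E9.5. The count of those that rose was 6 to 7 when any 1 of the 4 libraries was left out. Gata2, a transcription factor induced by BMP (chromosome 6, 88193891 to 88207032), was at 14.7 and 22.2 RPM at E9.5 and at 175 and 178 RPM in females (3.22 ± 0.20, adjusted p = 1.13e-07). In males it was at 11.9 and 13.5 RPM, and the sexes differed by 3.70 ± 0.20. Id1, an immediate BMP target, was at 56.2 and 63.5 RPM at E9.5, at 139 and 154 RPM in females and at 4.06 and 4.82 RPM in males. Its rise in females lost the call when any of the 4 libraries was left out, but its difference from males (4.76 ± 0.38) did not. Id2 and Id3 were not called against E9.5 (0.45 and 0.52), and were higher than in males by 2.38 and 1.75.

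Of the WNT genes in this list some rose in females and others were not called. The nuclear effectors Tcf7l1 (14.0 and 12.7 to 53.1 and 55.1 RPM) and Tcf7 (22.1 and 20.8 to 82.8 and 85.5 RPM) rose by 1.94 and 1.93. The feedback ligase gene Znrf3 went from 4.04 and 6.41 to 17.0 and 17.7 RPM and the target Sp5 from 3.31 and 4.48 to 14.6 and 12.1 RPM. These 4 genes were not called between the sexes, with log2 differences of -0.10 to 0.65. The widely used target Axin2 was not called against E9.5 (9.56 and 13.9 against 11.8 and 12.6 RPM), nor were the effector Lef1, the receptor Lgr4 and the feedback gene Nkd1, with log2 changes of 0.66, 0.03 and -0.15. The receptor-activated Smad1 fell from 7.35 and 4.01 to 1.82 and 2.01 RPM, a call lost without E9.5 replicate 1 or either female library.

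Male fate genes moved in both directions, with 4 of 11 lower than at E9.5 (36.4%, against 17.1% of all genes) and 3 higher (27.3%, against 20.4%). Of the 11, 4 reached 5 RPM in all 4 libraries and 3 in both E9.5 libraries but not in both of the females. With 1 library left out, 2 to 4 were lower. Lefty2, a Nodal antagonist, was at 11.9 and 13.4 RPM at E9.5 and at 2.12 and 1.01 RPM in females, against 241 and 264 RPM in males. Nodal and its co-receptor gene Tdgf1 were not called against E9.5 and were lower than in males by -1.65 ± 0.29 and -2.46 ± 0.36. Dusp9, an X-linked phosphatase gene of the MAP kinase pathway, rose in females from 35.7 and 46.9 to 168 and 172 RPM. Males held 56.8 and 63.8 RPM, a difference of 1.48 ± 0.23.

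Of 19 tested genes of PGC specification 3 rose (15.8%, against 20.4% of all genes), 6 fell (31.6%, against 17.1%) and 10 were not called, with a median of -0.01. Prdm1, the factor Blimp1, was at 68.6 and 65.1 RPM at E9.5 and at 61.6 and 71.7 RPM in females (-0.01 ± 0.15). Kit was at 204 and 211 against 263 and 232 RPM and Nanos3 at 15.4 and 13.4 against 15.5 and 15.6 RPM. None of the 3 was called. The libraries of Prdm1 overlapped between stages. Those of Kit and Nanos3 did not, which with 2 libraries in each group is not a test of change. Tfap2c, the third specification factor, fell from 217 and 225 to 129 and 152 RPM (-0.66 ± 0.16), with adjusted p = 0.0581 without E12.5 female replicate 1. Prdm14 fell from 80.1 and 82.1 to 60.6 and 51.3 RPM, a call lost without either E9.5 library or E12.5 female replicate 2. The interferon-induced transmembrane genes, surface markers of early PGCs, fell in 3 cases: Ifitm1 from 1322 and 1218 to 824 and 782 RPM, Ifitm2 from 378 and 378 to 251 and 223 RPM, and Ifitm3 by 1.88 on the log2 scale. Their sequences are alike, so reads could have been shared among them.

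Pluripotency genes divided. Of 25 tested 11 rose (44.0%, against 20.4% of all genes), 5 fell (20.0%, against 17.1%) and 9 were not called, and 3 to 5 fell with 1 library left out. The core factors were lower or level: Sox2 went from 395 and 375 to 259 and 235 RPM (-0.64 ± 0.11), Pou5f1 from 756 and 678 to 538 and 492 RPM (-0.48 ± 0.12), and Nanog was at 146 and 126 against 127 and 110.4 RPM and was not called. The Pou5f1 call was lost without E9.5 replicate 1 or E12.5 female replicate 2 (adjusted p = 0.0750 and 0.062). Klf2 fell from 135 and 164 to 42.4 and 47.0 RPM. In contrast, Dppa4 and Dppa2, chromatin proteins encoded side by side, rose from 86.8 and 88.2 to 377 and 349 RPM and from 18.8 and 15.6 to 67.0 and 68.1 RPM. Fut4, the enzyme that makes the SSEA1 surface epitope, rose from 2.57 and 1.89 to 17.6 and 12.1 RPM, and Tcl1, a cofactor of Akt, from 74.3 and 78.3 to 169 and 180.3 RPM.

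The migration genes fell more often than they rose: 19 of 36 tested were lower (52.8%, against 17.1% of all genes) and 2 higher (5.56%, against 20.4%), with a median of -0.41. Of the 36, 29 reached 5 RPM in all 4 libraries and 6 in both E9.5 libraries but not in both of the females. For those 6 the filter may have set the direction. With 1 library left out, 14 to 15 were lower and 0 to 1 higher. Several genes that act on actin were among those that fell, while Actb, Arpc2, Arpc5, Vasp, Msn and Tln1 were not called. Tpm4, a tropomyosin (chromosome 8, 72135288 to 72153142), was at 101 and 101 RPM at E9.5 and at 5.15 and 3.39 RPM in E12.5 females, 23.7-fold lower (-4.30 ± 0.27, adjusted p = 1.28e-07). Tmsb4x and Tmsb10, thymosins that bind free actin, went from 339 and 291 to 43.4 and 37.7 RPM and from 587 and 735 to 239 and 241 RPM. Fscn1, which bundles actin in filopodia, went from 165 and 165 to 52.4 and 64.6 RPM (-1.49 ± 0.17). The small GTPase Rac1, which drives protrusion, fell from 196 and 156 to 83.2 and 87.8 RPM, and the focal adhesion gene Zyx from 45.2 and 37.98 to 16.7 and 21.6 RPM. Other regulators were not called: Rhoa (147 and 178 against 196 and 175 RPM), Cdc42 (356 and 336 against 348 and 362 RPM) and Rock2 (43.4 and 45.3 against 45.2 and 53.1 RPM). The 2 members that rose, Rock1 and Rdx, did so by 0.48 and 0.34 and lost the call without any of the 4 libraries.

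Guidance genes gave a mixed picture. Cxcr4, the receptor for Cxcl12, was at 2.21 and 4.48 RPM at E9.5 and at 1.82 and 1.84 RPM in females, and did not pass the filter on low values. Its ligand gene Cxcl12, a product of surrounding mesenchyme, was at 25.4 and 30.9 RPM at E9.5 and at 0.606 and 0.283 RPM in females, below the 3-read floor. Wnt5a, another tissue-derived cue, went from 33.1 and 37.3 to 3.94 and 4.53 RPM, and Pdgfra, a mesenchyme receptor, from 16.5 and 15.6 to 0 and 1.26 RPM. Ror2, the receptor through which Wnt5a steers PGCs, was at 61.8 and 72.9 against 39.7 and 41.7 RPM, a fall of -0.71 ± 0.23 whose call was lost without any of the 4 libraries. It stood at 8.75 and 9.63 RPM in males, a difference of 2.03 ± 0.23.

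Mesenchyme markers and Hox genes were tested mostly where E9.5 took them past the filter, so their direction was largely set by it and nothing is read from their counts. Of 12 mesenchyme markers tested, 10 reached 5 RPM in both E9.5 libraries but not in both of the females, and 10 were called lower, with 4 under a filter of 20 RPM and 14 without a filter. The somite gene Meox1 was at 33.8 and 36.8 RPM at E9.5 and listed at 0 in both female libraries. Twist1, a driver of mesenchymal identity, went from 38.6 and 39.9 RPM to 0 and 1.09 RPM, and Twist2 from 6.25 and 7.08 RPM to 0 in both. Of 17 Hox genes tested, which mark trunk position, 16 passed in the same way, and 17 were called lower, with 1 under a filter of 20 RPM and 31 without a filter. Hoxb9 was at 26.1 and 32.1 RPM there and at 0.303 and 1.51 RPM in females. The other 19 Hox genes with a row did not pass the filter. The part of these cells' RNA in the falls of migration genes was not tested.

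Adhesion genes moved in both directions, 10 higher (31.2%, against 20.4% of all genes) and 5 lower (15.6%, against 17.1%) of 32 tested, with a median of 0.15. Of the 32, 25 reached 5 RPM in all 4 libraries and 5 in both E9.5 libraries but not in both of the females. The count of those that rose was 6 to 7 when any 1 of the 4 libraries was left out. Sdc4, a heparan sulphate proteoglycan, was at a mean of 13.3 ± 1.17 RPM (SD, n = 2) at E9.5 and at 42.1 and 35.5 RPM in females (1.47 ± 0.19), and at 114 and 94.8 RPM in males. The tetraspanin gene Cd9 went from 54.8 and 49.5 to 131 and 107 RPM, and Pecam1, a homophilic adhesion molecule of PGCs, from 72.1 and 74.8 to 151 and 148 RPM. Itga6, a laminin receptor subunit, was at 6.99 and 5.90 against 16.4 and 14.3 RPM and Cdh3 at 9.19 and 5.98 against 24.3 and 15.1 RPM. The first call was lost without any of the 4 libraries, and the second without E9.5 replicate 2 or E12.5 female replicate 1. Cdh1, the E-cadherin by which gonadal germ cells cluster, was at 4.96 and 5.90 against 8.19 and 10.6 RPM and was not called (adjusted p = 0.153). Itgb1, the common integrin partner, went from 64.7 and 80.7 to 132 and 129 RPM, a call lost without E9.5 replicate 1.

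The 5 adhesion genes that fell included epithelial genes. Among them, Krt8, Podxl and Itga9 reached 5 RPM in both E9.5 libraries but not in both of the females. The filter may therefore have set the direction of these genes. Krt8, an epithelial keratin, went from 23.5 and 27.4 to 6.06 and 2.26 RPM, Cldn7, a tight junction claudin, from 53.7 and 54.7 to 13.3 and 17.6 RPM, and Podxl, a sialomucin, from 12.9 and 13.4 to 2.12 and 3.52 RPM. Itga9 went from 6.37 and 7.21 to 0 and 0.503 RPM. Cd24a, a surface protein of immature cells, went from 381 and 360.4 to 136 and 157 RPM (-1.34 ± 0.24) and stood at 51.9 and 44.3 RPM in males.

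**Figure D5:**
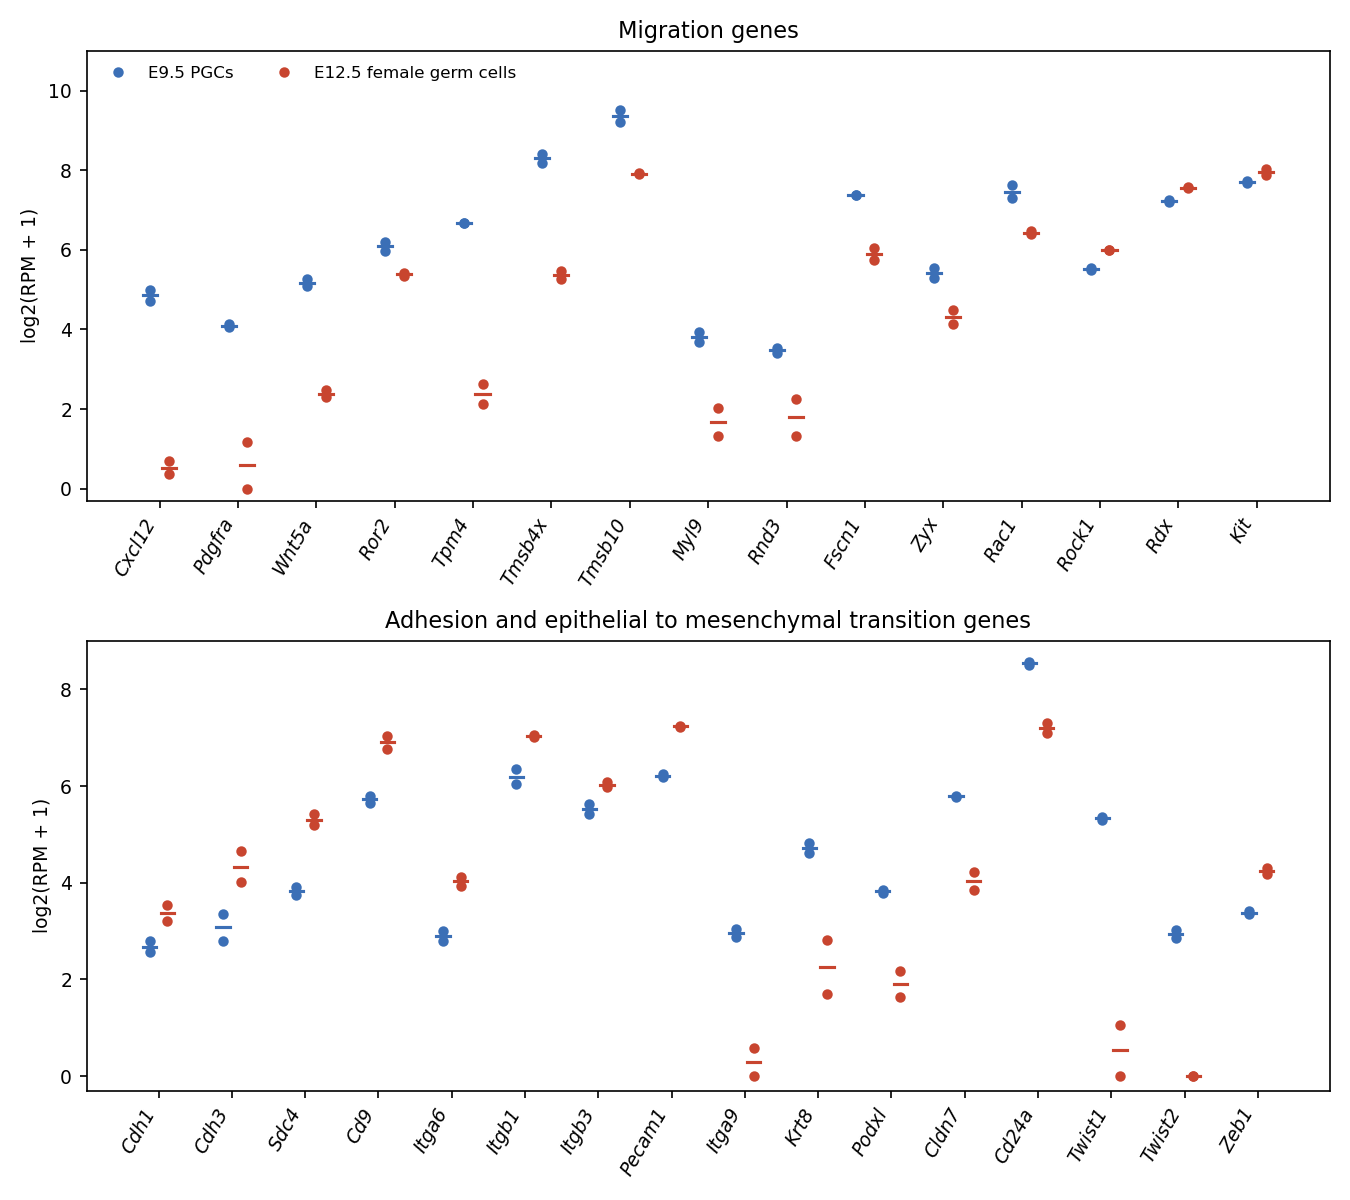
Levels of migration, adhesion and transition genes as log2(RPM + 1), 1 point per library with the group mean as a bar, for E9.5 PGCs (blue) and E12.5 female germ cells (red). Cxcl12, Tpm4 and Twist1 fall furthest, Rock1, Rdx and Kit lie close together, and Sdc4, Cd9 and Pecam1 rise.

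Genes of DNA methylation were higher in 4 of 15 cases (26.7%, against 20.4% of all genes) and lower in 2 (13.3%, against 17.1%), shares near those of all genes, with a median of 0.12. Only 2 were called higher when any 1 of the 4 libraries was left out. Tdg, the glycosylase that removes oxidised methylcytosine, fell from 131 and 137 to 42.0 and 46.8 RPM (-1.57 ± 0.15, adjusted p = 4.29e-06). Gadd45b rose from 5.51 and 6.37 to 23.6 and 24.6 RPM, while Gadd45a fell from 68.2 and 72.4 to 37.6 and 26.2 RPM. Tet1, which oxidises methylcytosine, was at 49.3 and 51.7 against 79.4 and 80.6 RPM and the maintenance enzyme Dnmt1 at 161 and 176 against 237 and 258 RPM, rises whose calls were lost when any of the 4 libraries was left out. Its recruiter Uhrf1 was not called (30.9 and 25.7 against 20.9 and 15.8 RPM). The de novo genes Dnmt3a and Dnmt3b were not called, and Dnmt3l was at 0 in all 4 libraries.

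Of 30 tested cell cycle genes of S phase and mitosis 4 rose (13.3%, against 20.4% of all genes) and 6 fell (20.0%, against 17.1%), with a median of -0.01. The falls numbered 1 to 3 and the rises 2 to 3 when any 1 of the 4 libraries was left out. Pcna was at 965 and 1008 RPM at E9.5 and at 888 and 898 RPM in females, and Ccnb1 at 447 and 475 against 412 and 425 RPM. Neither was called. Aurkb, a mitotic kinase, fell from 138 and 144 to 68.2 and 80.2 RPM (-0.92 ± 0.12). Of 20 regulators of G1 4 rose (20.0%) and 8 fell (40.0%, against 17.1% of all genes), with 5 falls when any 1 library was left out. Of the 20, 16 reached 5 RPM in all 4 libraries and 3 in both E9.5 libraries but not in both of the females. Ccnd2, a D-type cyclin, went from 22.4 and 20.0 to 0.303 and 0.251 RPM and Ccne1 from 104 and 100.0 to 48.2 and 64.1 RPM. The cyclin-dependent kinase inhibitor Cdkn1c fell from 66.9 and 71.9 to 30.0 and 26.7 RPM, whereas Cdkn1a rose by 2.38 ± 0.28, from 6.62 and 7.55 to 45.2 and 37.5 RPM, and the retinoblastoma gene Rb1 went from 26.1 and 26.9 to 66.1 and 51.5 RPM.

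Targets of p53 and apoptosis genes rose in 9 of 21 cases (42.9%, against 20.4% of all genes) and fell in 1 (4.76%, against 17.1%), with a median of 0.61, and 5 to 6 rose when any 1 of the 4 libraries was left out. Of the 21, 15 reached 5 RPM in all 4 libraries and 4 in both female libraries but not in both of E9.5. Trp53inp1 was at 32.0 and 34.7 RPM at E9.5 and at 114 and 109 RPM in females (1.72 ± 0.11), and Ccng1 went from 27.2 and 25.7 to 70.3 and 68.6 RPM. Trp53 itself was at 43.4 and 3.54 RPM in the 2 E9.5 libraries and at 156 and 154 RPM in females. Its change, 3.46 ± 0.73, was 1.81 without E9.5 replicate 2 and 5.10 without E9.5 replicate 1. Pmaip1, the death gene Noxa, was not called against E9.5 (1.59 and 1.297 against 0.707 and 1.13 RPM) and was lower than in males by -4.48 ± 0.37, where it was at 43.8 and 39.4 RPM.

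Glycolysis genes fell in 11 of 22 cases (50.0%, against 17.1% of all genes) and rose in 4 (18.2%, against 20.4%), with a median of -0.76, and 1 to 2 rose when any 1 of the 4 libraries was left out. In the lower pathway, Pgk1 went from 837 and 857 to 293 and 299 RPM (-1.51 ± 0.20), Eno1 from 1109 and 1103 to 386 and 399 RPM (-1.49 ± 0.14) and Pkm2, the pyruvate kinase gene, from 1713 and 1864 to 838 and 875 RPM (-1.06 ± 0.09). The lactate exporter gene Slc16a3 went from 53.7 and 57.3 to 7.58 and 5.03 RPM. Ldha, which makes lactate, went from 640.1 and 620.0 to 75.8 and 66.5 RPM. Upstream, the glucose transporter gene Slc2a3 (414 and 367 to 109 and 141 RPM), the phosphofructokinase gene Pfkl (46.69 and 46.7 to 13.6 and 13.8 RPM) and the aldolase gene Aldoa (912 and 964 to 467 and 432 RPM) also fell. The hexokinase genes Hk1 and Hk2 and the isomerase gene Gpi1 were not called, with log2 changes of 0.10, -0.39 and -0.09. Pdk3, which restrains entry of pyruvate into the mitochondria, rose from 110.3 and 111 to 199 and 213 RPM (0.89 ± 0.11). Blood and mesenchyme marker sums were higher at E9.5, and their part in these changes was not tested.

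Imprinted genes of both parental classes fell more often than they rose. Of 18 tested genes expressed from the paternal copy 8 fell (44.4%, against 17.1% of all genes) and 2 rose (11.1%, against 20.4%), with a median of -0.60. Of these 18, 4 reached 5 RPM in both E9.5 libraries but not in both of the females. Of 16 expressed from the maternal copy 6 fell (37.5%, against 17.1%) and 4 rose (25.0%, against 20.4%), with a median of -0.51. Blood and mesenchyme marker sums were higher at E9.5, and their part in the changes of imprinted genes was not tested. Dlk1 and Nnat went from 14.3 and 13.0 to 0.303 and 0.251 RPM and from 13.6 and 11.8 to 0.303 RPM and 0, in females under the 3-read floor. Igf2, a growth factor, went from 179 and 172 to 29.1 and 35.0 RPM and the neighbouring H19 from 122 and 133 to 41.2 and 30.9 RPM. Both were higher in females than in males, by 2.34 ± 0.38 and 1.74 ± 0.30. Gnas fell from 385 and 426 to 82.5 and 114 RPM. Snrpn, whose reads can be shared with the overlapping Snurf, was at 0.0283 and 0.0151 RPM at E9.5, under the floor of 3 reads, and at 4.62 and 11.5 RPM in females. Ascl2, a placental transcription factor, rose from 2.57 and 0.944 to 19.099 and 13.8 RPM.

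X-linked genes were counted because females carry an additional X chromosome that is reactivated in their germ cells. Of 409 tested, 140 were higher than at E9.5 (34.2%) and 69 lower (16.9%), with a median of 0.28. Of 10088 autosomal genes 2028 were higher (20.1%) and 1722 lower (17.1%), with a median of 0.04. Against males, 117 X-linked genes were higher in females (28.6%) and 5 lower (1.22%), where 593 autosomal genes were higher (5.88%) and 555 lower (5.50%). The 117 became 61 to 71 when any 1 of the 4 female and male libraries was left out, and the 5 became 2 to 4. E9.5 libraries may hold both sexes, so the part of sex in the first of these shifts cannot be told apart from that of stage.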

How the data were processed

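The deposited values are RPM, reads that the authors scaled to the library total, from 3′ RNA sequencing on a SOLiD instrument per the labels' protocols. Per the submitters' processing notes, tools were Cufflinks 2.2.0, TopHat 1.4.1 and cutadapt 1.3 and the build was mm10, without a role for each. Besides gene rows, 92 rows hold ERCC spike-in RNAs. Low values were mostly multiples of the RPM of 1 read, but only 84.0% to 87.4% of them within 0.1 read in these libraries, so count tests were not used and depth is an estimate.

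Values were analysed as log2(RPM + 1). Genes with at least 5 RPM in at least 2 of the 12 libraries were tested, 10856 of 26218 rows. All 12 libraries entered 1 linear model of limma 3.58.1 (R 4.3.3) with a mean for each of 6 groups, which share the estimate of spread. It had 6 residual and 8.02 prior degrees of freedom. It was also run on simulated data with normal noise, a check of the code and not of the p-values given here. P-values were adjusted over all genes tested, by Benjamini and Hochberg, and called under 0.05. Gene positions are from the RefSeq annotation of GRCm38.p6, in which 24619 rows were matched by identifier.

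Of 685 entries in 29 gene lists, 681 matched a row and 509 passed the filter. The comparison and the lists were chosen for description with earlier results of these data known, while libraries entered groups by their labels. Lists are given by counts, shares called beside those of all genes, and medians, without a set test. Named genes were 21 germ cell genes always reported and up to 5 called members of each list with the largest increase and 5 with the largest decrease. To these came the 15 largest increases and decreases among called genes that did not overlap between stages and reached a mean of 50 RPM. Symbols of predicted genes (Gm followed by digits, ending in Rik or beginning with LOC) were left out of these 15. Further list members are named to show genes of a pathway that were not called or had smaller changes, and were chosen after their values were seen. Some members of the lists are counted but not reported here by name. Alternatives were pseudocounts of 0.5 and 4 RPM, no filter and a filter of 20 RPM, medians set to 0, quantile normalization, fits over 4 or 6 libraries, a replicate block, and leaving out each library. Rescaling without blood genes was added after the data were seen.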

Additional observations from a re-analysis of the deposited data

Results flagged for a closer look

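Female and male germ cells of E12.5 changed from E9.5 in opposite directions, each called, in 6 named genes. The genes were picked by this and by a called difference between females and males, so that difference gives a size and is no separate test. Rec8 rose by 1.88 in females and changed by -1.87 in males, a difference of 3.75 on the log2 scale (adjusted p = 1.95e-05, limma). Nr6a1 rose by 0.84 against -2.38 in males (difference 3.22), and Phlda2 by 0.65 against -5.52 (difference 6.17). Lefty1 changed by -1.10 in females against 4.43 in males (difference -5.54) and Lefty2 by -2.45 against 4.21 (difference -6.66). The transferrin gene Trf, listed among endoderm markers, was at 4.78 and 4.25 RPM at E9.5, at 1.21 and 1.26 RPM in females and at 11.9 and 12.3 RPM in males (difference -2.55, adjusted p = 0.00149). Its fall in females lost the call when any of the 4 libraries was left out.

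ERCC spike-in RNAs, which no comparison used, summed to 1372 and 628 RPM in the E9.5 libraries and to 12107 and 14003 RPM in the E12.5 female libraries, 13.1 times as much on average, and to 14411 and 16494 RPM in males. The spike amount per library is not given in the sources used here, and gene RPM were scaled without the spikes.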

How the results depend on the processing

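Against E9.5, 4069 genes were called in E12.5 females, and 2456 to 2782 when 1 library was left out. Those that changed at least 2-fold numbered 1993, with 1540 to 1719 when 1 library was left out and 1042 under a filter of 20 RPM, which tests fewer genes. The 1297 calls between females and males became 538 to 567 when 1 library was left out. They became 2351 in a fit over the 6 embryonic libraries and 2316 with a replicate block in that fit; the cause was not tested. With the replicate block, 5159 genes were called against E9.5 and 5160 without it. Same-numbered libraries showed no common shift, as their deviations from group means correlated at -0.0236 for females with E9.5 and 0.0233 for females with males. That cannot tell whether they came from the same litter or sort. The higher and lower calls of 2216 and 1853 became 2011 and 2054 with medians set to 0, and 2075 and 2248 without a filter. X-linked genes called higher numbered 140, and 106 to 113 when 1 library was left out. Those called lower numbered 69, with 53 to 59, 41 under the filter of 20 RPM and 107 without a filter. Of 192 named genes called against E9.5, 144 kept the call under every alternative that tested them, 48 lost it without at least 1 library, and 0 reversed. Low genes are limited by depth, with 3 reads worth up to 1.10 RPM.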

Other observations

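Histone methylation genes, which the report does not describe, were higher in E12.5 females in 7 of 29 cases (24.1%, against 20.4% of all genes) and lower in 5 (17.2%, against 17.1%), shares near those of all genes, with a median of 0.12. The counts were 2 to 3 higher and 0 to 2 lower when any 1 of the 4 libraries was left out. Bmi1, a Polycomb gene, was at 28.1 and 24.3 RPM at E9.5 and at 64.3 and 70.5 RPM in females (1.33 ± 0.26). The H3K9 methyltransferase genes Ehmt1 and Setdb1 were at 16.5 and 21.7 against 38.9 and 36.7 RPM and at 87.9 and 81.1 against 137 and 113 RPM. The Polycomb methyltransferase gene Ezh2 was at 229 and 245 against 176 and 179 RPM, and Pcgf6 and E2f6, subunits of a Polycomb complex that represses germline genes, at 65.4 and 64.6 against 41.2 and 48.0 RPM and at 40.8 and 41.8 against 29.0 and 27.4 RPM. Of these, Bmi1 kept its call without each library in turn, and the other 5 lost it without at least 1.

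Respiratory chain genes were higher in 8 of 31 cases (25.8%, against 20.4% of all genes) and lower in 3 (9.68%, against 17.1%), with a median of 0.13, and 4 to 5 were higher and 1 to 2 lower when any 1 of the 4 libraries was left out. Atp5g1, a subunit of ATP synthase, went from 683 and 618 to 1349 and 1297 RPM (1.02 ± 0.09), while Cox6c went from 556 and 569.6 to 360.5 and 394 RPM (-0.58 ± 0.10). Markers of other tissues were not all lower in E12.5 females. Pax6 was at 11.4 and 10.4 RPM at E9.5 and at 29.7 and 27.9 RPM in females, and Cubn at 1.84 and 1.89 against 13.0 and 10.9 RPM.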
